A study of Mus musculus with 12 samples.

Results

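The genes Arg1, Arg2, Nos2, Ido1 and Ptgs2 encode enzymes that use up arginine or tryptophan or make prostaglandins. They were picked by gene symbol, all 5 were present, and they are 5 of the 770 genes that the nCounter mouse PanCancer Immune Profiling Panel counts with barcoded probes. The panel was read in 12 tumors of A20, a B-cell lymphoma line from mice, which was implanted under the skin of female Balb/c mice bought at 7 to 8 weeks of age. About 7 days later the mice were assigned to PBS, to GLA-SE (10 ug of GLA, a synthetic TLR4 agonist, in 50 ul of a 2% stable oil-in-water emulsion) or to SE, the same emulsion without GLA, with 4 mice in each group. Each tumor was injected 3 times, every other day, and was collected 2 h after the last injection, so all values come from whole tumors shortly after a dose.

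Arginase 1 in the cytosol and arginase 2 in mitochondria split arginine into ornithine and urea. Inducible nitric oxide synthase, the product of Nos2, turns the same amino acid into nitric oxide and citrulline. Indoleamine 2,3-dioxygenase 1, from Ido1, opens the ring of tryptophan at the start of the kynurenine pathway, and cyclooxygenase-2, from Ptgs2, makes the precursor of prostaglandins from arachidonic acid. In macrophages, Arg1 is classically induced by IL-4 and IL-13, Nos2 by interferon gamma together with bacterial products, and Ptgs2 by Toll-like receptor ligands and IL-1. All of these enzymes can restrain T cells, through loss of an amino acid, through nitric oxide or through prostaglandin E2.

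Of the 5 genes only Ptgs2 had an entry among the promoter sequences that were available, so only the bases in front of it are shown here. They are the 250 bases before the start of the gene in RefSeq for the mouse build GRCm38.p6 (chr1:150099781-150100030, plus strand), and the capitals mark the only match among 6 motifs searched on both strands.
Ptgs2: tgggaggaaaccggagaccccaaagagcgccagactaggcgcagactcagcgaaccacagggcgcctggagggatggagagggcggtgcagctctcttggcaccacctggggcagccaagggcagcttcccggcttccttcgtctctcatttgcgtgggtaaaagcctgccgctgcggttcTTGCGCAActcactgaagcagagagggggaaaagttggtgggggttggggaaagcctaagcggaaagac
The match is to the C/EBP motif TTGCNNAA, at bases -69 to -62 counted back from the start, and it reads the same on both strands. The motif is present in 9.56% of 32851 mouse promoter windows of the same length. The NF-kappaB motif, AP-1 (TGANTCA), the interferon gamma activated site (TTCNNNGAA), the cyclic AMP response element (TGACGTCA) and the TATA box (TATAAA) had no match, and they are present in 3.90%, 6.75%, 7.02%, 1.55% and 12.4% of the windows. A match of letters is a description and does not show that a factor binds there.

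The total count per tumor was 810260 to 1612415. The deposited counts were treated as not normalized. A scale for every tumor was taken from the geometric mean of 17 selected reference genes, and a normalized count is a deposited count after this scaling. Groups were compared by edgeR's quasi-likelihood test with Benjamini-Hochberg adjustment over the 750 genes that are not reference genes, with a threshold of 0.05. Of 2 tumors that stood apart, GLA-SE replicate 3 had the highest value of its group for 424 of the 750 genes (56.5%). SE replicate 4 did so for 556 (74.1%) and had the lowest reference genes of all 12 tumors (geometric mean of the 20 reference genes 959, against up to 2587), so its counts were raised most by the scaling. B-cell markers were high in every tumor, with a sum over 8 genes of 14219 to 23305 normalized counts. The labels do not say whether the groups were processed together, and the p values measure the spread between mice.

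In GLA-SE tumors, 4 of the 5 genes were higher than in PBS tumors with an adjusted p under 0.05. They were Arg1, Arg2, Nos2 and Ptgs2, and for each of them all 4 GLA-SE tumors lay above all 4 PBS tumors. On this panel 68.3% of the 750 genes were higher in the same comparison and 63.6% lay higher without overlap, so the count of 4 in 5 is near the background. The median log2 fold change over the 750 genes was 0.89, and against that median Ptgs2 was higher by 3.38, Nos2 by 1.83, Arg2 by 1.61 and Arg1 by 0.86 on the log2 scale. Ido1 stood at the panel median (log2 fold change 0.89). In SE tumors none of the 5 genes differed from PBS tumors by this test, where 0% of the panel was called. Against SE tumors 1 of the 5, Arg1, was higher in GLA-SE tumors, where 2.13% of the panel was called higher. The comparisons share tumors, so they are not independent of one another.

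**Figure D1:**
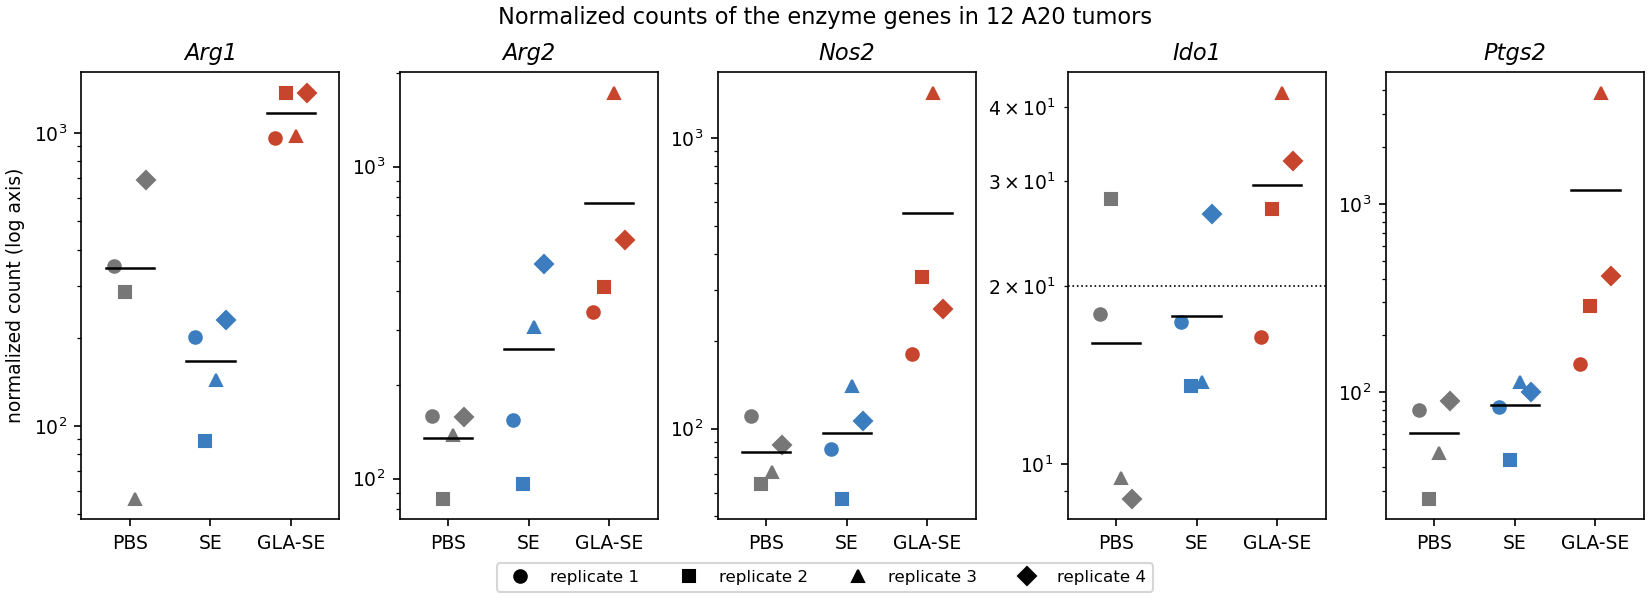
Normalized counts (log axis, a different range in each panel) of the enzyme genes in the 4 PBS, 4 SE and 4 GLA-SE tumors, with a marker for each replicate number and a black line at the group mean; the dotted line for Ido1 marks 20 counts. Arg1 is high in all 4 GLA-SE tumors (965 to 1375), whereas the GLA-SE means of Arg2, Nos2 and Ptgs2 lie above 3 of their 4 tumors because GLA-SE replicate 3 is far higher.

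Arg1 had 352, 287, 56.2 and 693 normalized counts in PBS replicates 1 to 4. It had 201, 88.5, 144 and 230.0 in SE replicates 1 to 4 and 965, 1374, 980.2 and 1375 in GLA-SE replicates 1 to 4. The GLA-SE tumors were all above every other tumor and differed among themselves by 1.42-fold, while the PBS tumors spanned 12.3-fold and overlapped the SE tumors. In PBS tumors the coefficient of variation of Arg1 was the 6th highest among 674 genes with a mean of at least 20 counts. The means were 1173 ± 232 (SD, n = 4) in GLA-SE, 347 ± 263 in PBS and 166 ± 62.8 in SE tumors, so that the order of the levels was SE, PBS and GLA-SE, with SE and PBS not separated.

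Against PBS tumors the log2 fold change of Arg1 was 1.76 (standard error 0.59, 95% interval 0.42 to 3.09, adjusted p = 0.0257 by edgeR). A two-sided exact permutation test, with 70 ways to assign the tumors, gave p = 0.0286, the smallest it can give. This call depended on single tumors and on the scale. When single tumors were left out its value ranged from 1.40 to 2.34, and 4 of 8 fits kept the call. It was lost without PBS replicate 1, PBS replicate 2, GLA-SE replicate 2 or GLA-SE replicate 4 (adjusted p up to 0.0631). It was also lost when tumors were scaled to the panel median (0.55), by TMM (0.89) or by DESeq2's own size factors (0.96), which place the panel's median log2 fold change at or below 0.05, and with the stricter Benjamini-Yekutieli adjustment (adjusted p = 0.185).

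Against SE tumors the log2 fold change of Arg1 was 2.82 (standard error 0.34, 95% interval 2.05 to 3.60, adjusted p = 0.00773 by edgeR), a fitted fold of 7.08. Only 5 of the 750 genes had a larger log2 fold change, and the panel median was 0.22. The call held with each of the 8 tumors left out in turn (2.61 to 3.02), and without both GLA-SE replicate 3 and SE replicate 4 the value was 3.09 (adjusted p = 0.0260 by edgeR). Among the other scalings, tools and adjustments it was lost with scaling to the panel median (2.02, adjusted p = 0.113 by edgeR) and with Benjamini-Yekutieli adjustment (0.0556). SE against PBS gave a log2 fold change of -1.07 (standard error 0.66, 95% interval -2.60 to 0.46, adjusted p = 0.301 by edgeR). Arg1 ranked 748 of 750 in that comparison while the panel median was 0.53, and the interval holds 0. Without PBS replicate 4, the highest PBS tumor, the difference was -0.48.

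Arg2 had 158, 86.0, 138 and 157 normalized counts in PBS replicates 1 to 4. It had 154, 95.8, 307 and 487 in SE replicates 1 to 4 and 343, 411, 1729 and 582 in GLA-SE replicates 1 to 4. All GLA-SE tumors were above all PBS tumors, whereas SE replicate 4 reached into the GLA-SE range and SE replicates 1 and 2 lay among the PBS tumors. The means were 135 ± 33.9 (SD, n = 4) in PBS, 261 ± 175 in SE and 766 ± 649.6 in GLA-SE tumors, and neither PBS and SE nor SE and GLA-SE were separated. The log2 fold change was 2.50 for GLA-SE against PBS (standard error 0.53, adjusted p = 0.00369 by edgeR) and 1.72 without GLA-SE replicate 3 (adjusted p = 0.000647 by edgeR). It was 0.95 for SE against PBS (95% interval -0.23 to 2.12) and 1.56 for GLA-SE against SE (95% interval 0.00043 to 3.12), with adjusted p of 0.262 and 0.280 by edgeR. Without GLA-SE replicate 3 the last value was 0.77, and without SE replicate 4 the log2 fold change of SE against PBS was 0.46.

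Nos2 had 110.2, 64.5, 70.8 and 88.2 normalized counts in PBS replicates 1 to 4. It had 84.9, 57.3, 139.9 and 106 in SE replicates 1 to 4 and 180.2, 333, 1433 and 258 in GLA-SE replicates 1 to 4. PBS and SE tumors overlapped and every GLA-SE tumor was above them, with GLA-SE replicate 3 at 5.57 times the mean of the other GLA-SE tumors. The means were 83.4 ± 20.5 (SD, n = 4), 97.0 ± 34.8 and 551 ± 591 in PBS, SE and GLA-SE tumors. The log2 fold change was 2.72 for GLA-SE against PBS (standard error 0.66, adjusted p = 0.00673 by edgeR), and 1.62 without GLA-SE replicate 3 (adjusted p = 0.00104 by edgeR). For GLA-SE against SE it was 2.51 (95% interval 0.87 to 4.15, adjusted p = 0.119 by edgeR), with no overlap between the groups, as was so for 14.4% of the panel in this direction. Without GLA-SE replicate 3 this value was 1.41 (adjusted p = 0.194 by edgeR). For SE against PBS it was 0.22 (95% interval -0.61 to 1.04), and its sign turned under 4 other scalings or tools and without SE replicate 3.

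Ido1 was near the limit of the assay. Its deposited counts were 19, 30, 13 and 11 in PBS replicates 1 to 4. They were 26, 13, 11 and 13 in SE replicates 1 to 4 and 17, 26, 39 and 32 in GLA-SE replicates 1 to 4, around the threshold count of 20 that the methods name. The normalized means were 16.0 ± 9.02 (SD, n = 4) in PBS, 17.8 ± 6.05 in SE and 29.6 ± 10.9 in GLA-SE tumors, and the 3 groups overlapped. The log2 fold change was 0.89 for GLA-SE against PBS (95% interval -0.08 to 1.87, adjusted p = 0.0900 by edgeR), 0.75 for GLA-SE against SE (95% interval -0.10 to 1.60) and 0.13 for SE against PBS (95% interval -0.88 to 1.15). The first of these passed the threshold without PBS replicate 2 (1.30, adjusted p = 0.0256 by edgeR) or without GLA-SE replicate 1 (1.10, adjusted p = 0.0478 by edgeR), and was -0.43 with scaling to the panel median and -0.032 with TMM. No difference in Ido1 was detectable at these counts, and the interval against PBS tumors still holds a rise of over 3-fold.

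Ptgs2 had 80.1, 27.1, 47.5 and 89.7 normalized counts in PBS replicates 1 to 4. It had 83.6, 43.7, 114 and 99.7 in SE replicates 1 to 4 and 141, 286, 3893 and 412 in GLA-SE replicates 1 to 4. Every GLA-SE tumor was above every PBS and SE tumor, and GLA-SE replicate 3 held 13.9 times the mean of the other GLA-SE tumors. The means were 61.1 ± 29.0 (SD, n = 4) in PBS, 85.2 ± 30.2 in SE and 1183 ± 1810.0 in GLA-SE tumors, and the coefficient of variation in GLA-SE tumors was the 3rd highest of 674 genes. The log2 fold change against PBS tumors was 4.27 (standard error 1.10, 95% interval 1.76 to 6.78, adjusted p = 0.00860 by edgeR), the 3rd highest of 750 genes. Without GLA-SE replicate 3 it was 2.19 (adjusted p = 0.00364 by edgeR), and with Benjamini-Yekutieli adjustment the adjusted p was 0.0619. Against SE tumors it was 3.80 (95% interval 1.28 to 6.31, adjusted p = 0.122 by edgeR), the highest of 750 genes, and 1.71 without GLA-SE replicate 3 (adjusted p = 0.194 by edgeR). SE against PBS gave 0.48 (95% interval -0.61 to 1.56, adjusted p = 0.490 by edgeR). Nos2 and Ptgs2 passed the threshold for GLA-SE against SE in a fit to all 12 tumors (adjusted p = 0.0310 and 0.0385 by edgeR), without rescaling and with DESeq2. Arg2 passed without rescaling (adjusted p = 0.0463 by edgeR) and with DESeq2's own size factors (adjusted p = 0.0497).

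**Figure D2:**
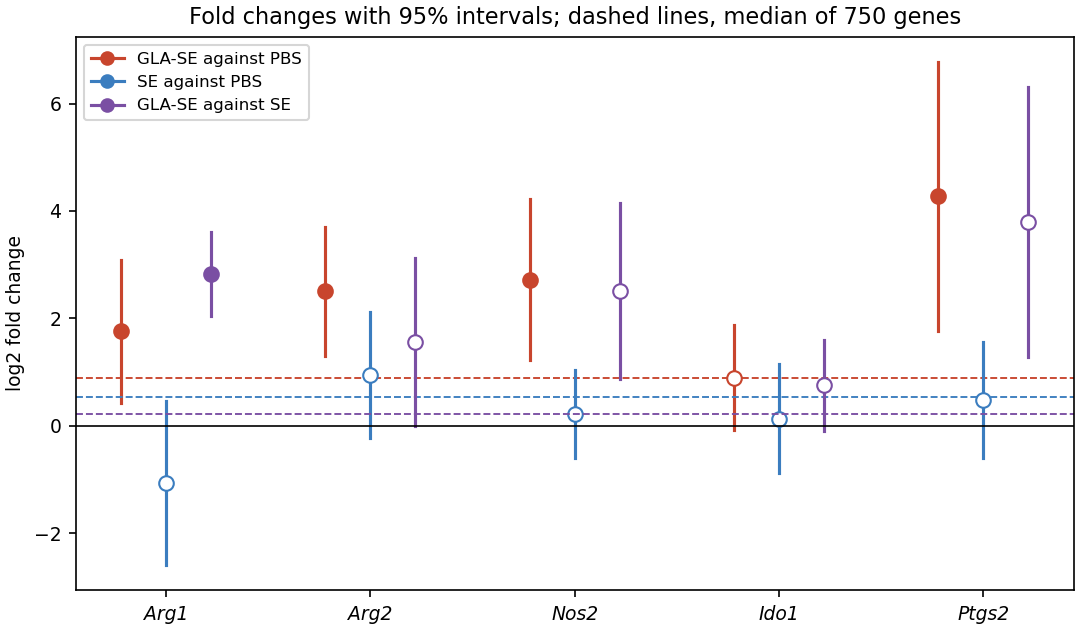
Log2 fold change (points) with the 95% interval (vertical lines) of each enzyme gene in the 3 comparisons; filled points have an adjusted p under 0.05 and dashed lines mark the median over 750 genes. Arg1 has the narrowest interval for GLA-SE against SE (2.05 to 3.60) and is the only gene of the 5 with a negative value for SE against PBS (-1.07).

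**Figure D3:**
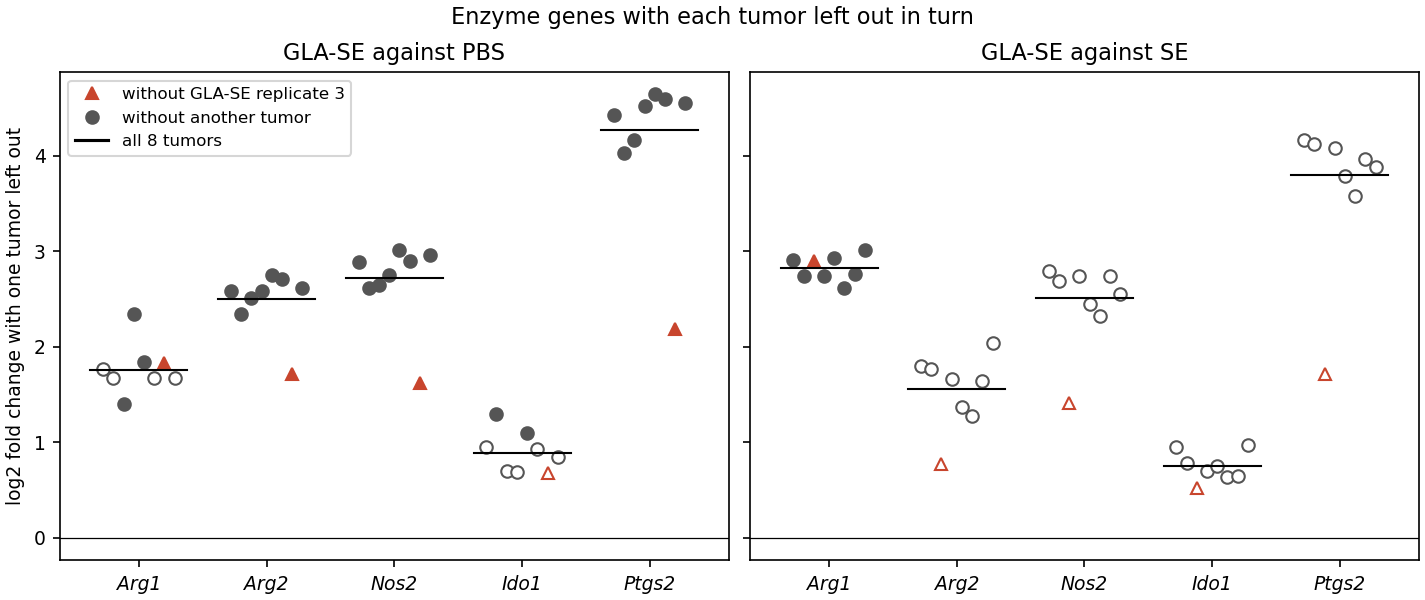
Log2 fold change of each enzyme gene with each of the 8 tumors of a comparison left out in turn, where the triangle leaves out GLA-SE replicate 3, the black line uses all 8 tumors and filled symbols have an adjusted p under 0.05. Leaving out that tumor lowers Ptgs2 from 4.27 to 2.19 against PBS and from 3.80 to 1.71 against SE, and leaves Arg1 at 1.83 and 2.90.

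Arg1 thus differed from Arg2, Nos2 and Ptgs2 in its pattern across tumors. GLA-SE replicate 3 had the highest Arg2, Nos2, Ido1 and Ptgs2 of all 12 tumors but only 980.2 counts of Arg1, below 2 of the other GLA-SE tumors. The ratio of the deposited counts of 2 genes in a tumor does not depend on the scaling, and since probes differ in efficiency it can be compared between tumors but not read as a ratio of transcripts. The log2 ratio of Arg1 to Nos2 was 1.58 ± 1.43 (SD, n = 4) in GLA-SE, 1.62 ± 1.41 in PBS and 0.76 ± 0.55 in SE tumors. It did not separate GLA-SE from PBS tumors (difference -0.04, two-sided exact permutation p = 0.971). All 10 pairs of the enzyme genes were compared in the 3 comparisons, a choice made after the values were seen. Only Arg1 over Ido1 (higher by 2.18 on the log2 scale) and Ido1 over Ptgs2 (-1.94) had groups without overlap, both for GLA-SE against SE (exact permutation p = 0.0286 each, 0.321 after adjustment over the 30 comparisons). Since 0.0286 is the smallest p this test can give, the adjusted value could hardly pass the threshold, and nothing is concluded from it.

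**Figure D4:**
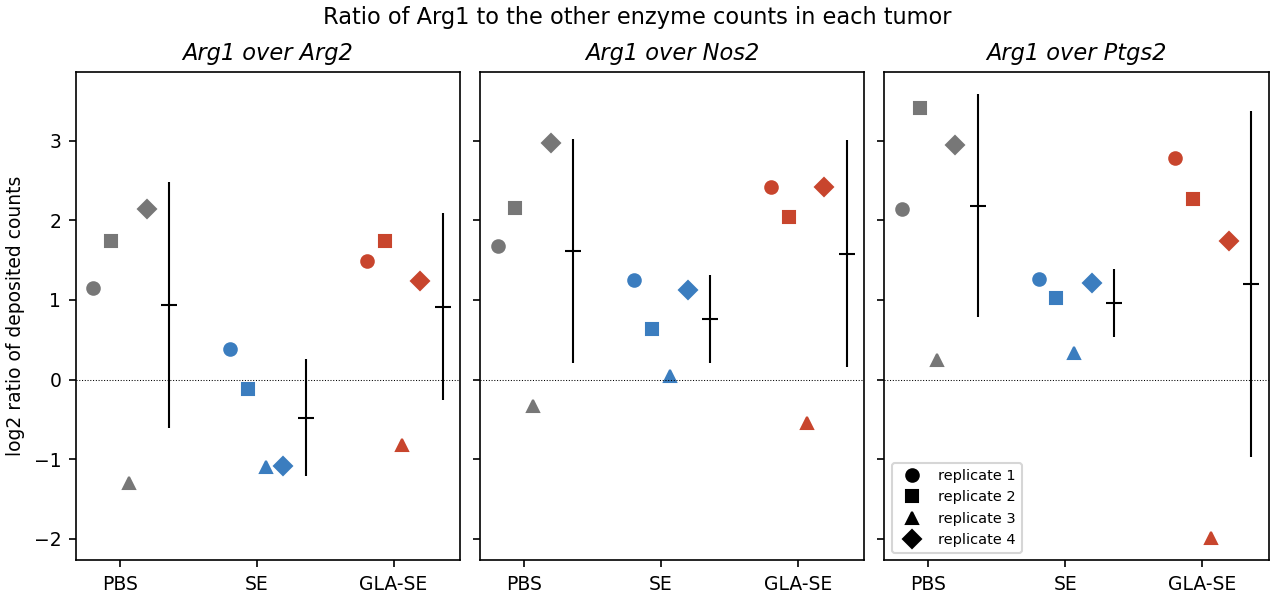
Log2 ratio of the deposited counts of Arg1 to those of Arg2, Nos2 and Ptgs2 in each tumor, with the mean ± SD of each group (n = 4) as a bar beside its points. In GLA-SE tumors the ratio to Nos2 is above 2 in 3 replicates and below 0 in GLA-SE replicate 3, and the groups overlap in every panel.

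The genes whose log2 normalized counts followed each enzyme most closely across the 12 tumors were taken from 673 other genes with a mean of at least 20 counts. These correlations are a description, since tumors share their group and their scale, and the value after taking out each group's mean is given beside each. Arg2 was followed by Socs3 (Pearson r = 0.996 over 12 tumors, 0.994 within groups), a feedback inhibitor of cytokine signaling, by Tlr2 (0.98 and 0.96), a receptor for bacterial lipoproteins, and by Csf3r (0.98 and 0.96), the G-CSF receptor of neutrophils. Nos2 and Ptgs2 followed each other (0.98 and 0.95). Both were followed by Tmem173, which encodes the DNA-sensing adaptor STING (0.98 and 0.95 with Nos2), and by Mefv, which encodes the inflammasome protein pyrin (0.97 and 0.95 with Ptgs2). Arg1 was followed by Itgal, an integrin subunit of leukocytes (0.87 and 0.52), the chemokine Cxcl10 (0.86 and 0.52) and the interferon-induced GTPase Gbp2b (0.86 and 0.60), whose values within groups were far lower. With Nos2, Ptgs2 and Arg2, Arg1 had r of 0.68, 0.65 and 0.60 over 12 tumors and of 0.13, 0.16 and 0.17 within groups. Over the 11 tumors without GLA-SE replicate 3 these r were 0.78, 0.74 and 0.58, so the contrast with Nos2 and Ptgs2 rests in part on that tumor. For Ido1 the leading genes were Traf3 (0.88 and 0.81), Trem1 (0.85 and 0.75) and Il10 (0.83 and 0.72), with counts near 20 for Ido1 itself.

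Some markers of other cell types were also higher in GLA-SE than in PBS tumors, and in whole tumors more cells of a type and more RNA per cell cannot be told apart. All 8 monocyte and macrophage markers (Csf1r, Emr1, Cd68, Lyz2, Cd163, Siglec1, C1qa, C1qb) were higher in GLA-SE than in PBS tumors, with a median log2 fold change of 1.37, against 68.3% of the panel called higher and a panel median of 0.89. With scaling to the panel median none of the 8 was called, and in the fit to all 12 tumors 4 were. Their sum was 31922 to 39969 normalized counts in PBS, 27000 to 116625 in SE and 87926 to 122700 in GLA-SE tumors. Against SE tumors none of the 8 was called and their median was 0.27, while that of Arg1 was 2.82. SE replicates 3 and 4, with sums of 79965 and 116625, had 144 and 230.0 counts of Arg1. No marker of the list was at 0 throughout a group, and the part of these cells in the results was not tested.

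Of 9 neutrophil markers, 4 were higher in GLA-SE than in PBS tumors (S100a8, Lcn2, Cxcr2 and Csf3r), a smaller share than the 68.3% of the panel called higher. The other 5 (Camp, Ltf, Elane, Mpo, Cxcr1) were not called, and 4 of the 9 markers had under 20 counts in every GLA-SE tumor. S100a8 and Lcn2 had the largest means of the list in GLA-SE tumors (2684 and 995 counts). The sum of the 9 markers, which rests largely on these, was 294 to 352 in PBS, 293 to 4745 in SE and 1257 to 11293 in GLA-SE tumors. It was highest in GLA-SE replicate 3, the tumor with the most Arg2, Nos2 and Ptgs2, and next in SE replicate 4 (4745), the SE tumor with the most Arg2 but not the most Nos2 or Ptgs2. Within its group GLA-SE replicate 3 also had the highest sums of dendritic-cell, monocyte and macrophage, T-cell and NK-cell markers. It did not have the highest sum of B-cell markers or of endothelium and fibroblast markers. The part of neutrophils or of any other cell type in these values was not tested. Among the remaining lists, 4 of 6 T-cell, 3 of 4 NK-cell, 2 of 5 dendritic-cell and 9 of 9 endothelium and fibroblast markers were higher and 2 of 8 B-cell markers (Ms4a1 and Cd79b) lower in GLA-SE than in PBS tumors, where 0.4% of the panel was called lower. The shares for T-cell and NK-cell markers are near the 68.3% of the panel called higher, that for dendritic cells is below it and that for endothelium and fibroblasts above it. The median log2 fold change of the endothelium and fibroblast list was 0.97, near the 0.89 of the panel. Of its 9 markers 5 lay higher without overlap, beside 63.6% of the panel. Without GLA-SE replicate 3, 1 T-cell marker was called, and none was with scaling to the panel median, with TMM, without rescaling or in the fit to all 12 tumors. Of the B-cell markers, 8 were called with scaling to the panel median, 7 with TMM or DESeq2's own size factors and 0 in the fit to all 12 tumors.

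The panel holds few genes near these enzymes in metabolism. Of 6 that were listed, Slc7a11, a transporter that brings in cystine, which is a substrate of none of the 5 enzymes, had a log2 fold change of 2.11 in GLA-SE against PBS tumors (adjusted p = 0.00843 by edgeR), and Pla2g6, a phospholipase A2, one of 0.46 (adjusted p = 0.0338 by edgeR). These were the only 2 of the 6 called higher, beside 68.3% of the panel, and only 1 of the 6 passed without GLA-SE replicate 3. Tdo2, which starts the same tryptophan pathway as Ido1, had -0.07, the pancreatic phospholipase Pla2g1b -0.06, and Ptgdr2 and Gpr44, a newer and an older symbol of a prostaglandin D2 receptor, 0.53 and 0.52, all with means under 20 counts in GLA-SE tumors. None of the 6 was called against SE.

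All 5 genes described for the interferon gamma axis were higher in GLA-SE than in PBS tumors, beside 68.3% of the panel. Their median log2 fold change was 1.18 against 0.89 for the panel, and with TMM scaling 0 of them were called. They were the cytokine Ifng (1.33), its receptor chain Ifngr1 (0.61), the kinases Jak1 (0.79) and Jak2 (1.43) and the transcription factor Irf1 (1.18). Irf1 was also higher than in SE tumors (1.01, adjusted p = 0.0333 by edgeR), a call that was lost without GLA-SE replicate 2 or 4 or without SE replicate 1, 2 or 3. Of 7 genes of the IL-4, IL-13 and IL-10 axis, 5 were higher than in PBS tumors (median 1.21), a share near the 68.3% of the panel. The largest rises were those of the cytokine Il10 (1.56, with overlap between the groups) and the receptor chain Il4ra (1.30, without overlap). The cytokines Il4 (0.75) and Il13 (0.49) were not called, at means of 19.6 and 22.7 counts in GLA-SE tumors, and none of the 7 was called against SE tumors. Against PBS tumors 2 were called with scaling to the panel median and 1 with TMM.

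Of 16 genes for TLR4 signaling and its inflammatory output, 13 were higher in GLA-SE than in PBS tumors, beside 68.3% of the panel, with a median of 0.88 against 0.89 for the panel. In the fit to all 12 tumors 7 were called, and 6 with Benjamini-Yekutieli adjustment. The largest rises were those of the cytokines Il1b (5.18) and Il6 (4.07). The summed normalized count of the list was 12728 to 42540.4 in GLA-SE tumors and was highest in GLA-SE replicate 3. Ticam2, Tirap and Tnf were not called, and none of the 16 was called against SE tumors. There the log2 fold changes ran from -0.57 (Lbp) to 3.58 (Il1b, adjusted p = 0.141 by edgeR). Their median was 0.35 against 0.22 for the panel, and the lack of calls is not read as a lack of difference. Macrophage genes often named for alternative activation (Chil3, Mrc1, Msr1, Ccl17, Ccl22, Ccl24, Il1rn) were higher than in PBS tumors for 6 of 7 (median 1.60), led by Il1rn (2.70) and Ccl22 (2.48), and for 0 of 7 against SE tumors. With scaling to the panel median 2 were called against PBS tumors. Those named for classical activation (Il12a, Il12b, Il23a, Cxcl9, Cxcl10, Cd80, Cd86) were higher than in PBS tumors for 6 of 7 (median 1.79), led by Il12b (2.64, with overlap between the groups) and Cd80 (2.38). Of these 7, 2 were called with scaling to the panel median, 3 with TMM and 4 with limma or without GLA-SE replicate 3. With 7 genes in each list and 68.3% of the panel called higher, neither count is read as particular to its list. Against SE tumors 2 of the 7 classical activation genes were higher, where 2.13% of the panel was called higher. They were the chemokines Cxcl10 (2.09, adjusted p = 0.00974 by edgeR) and Cxcl9 (1.40, adjusted p = 0.0171 by edgeR). Both calls were lost with scaling to the panel median, with a block for the replicate number and with Benjamini-Yekutieli adjustment, where 0 genes of the panel were called. In SE against PBS tumors no gene of any list was called.

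**Figure D5:**
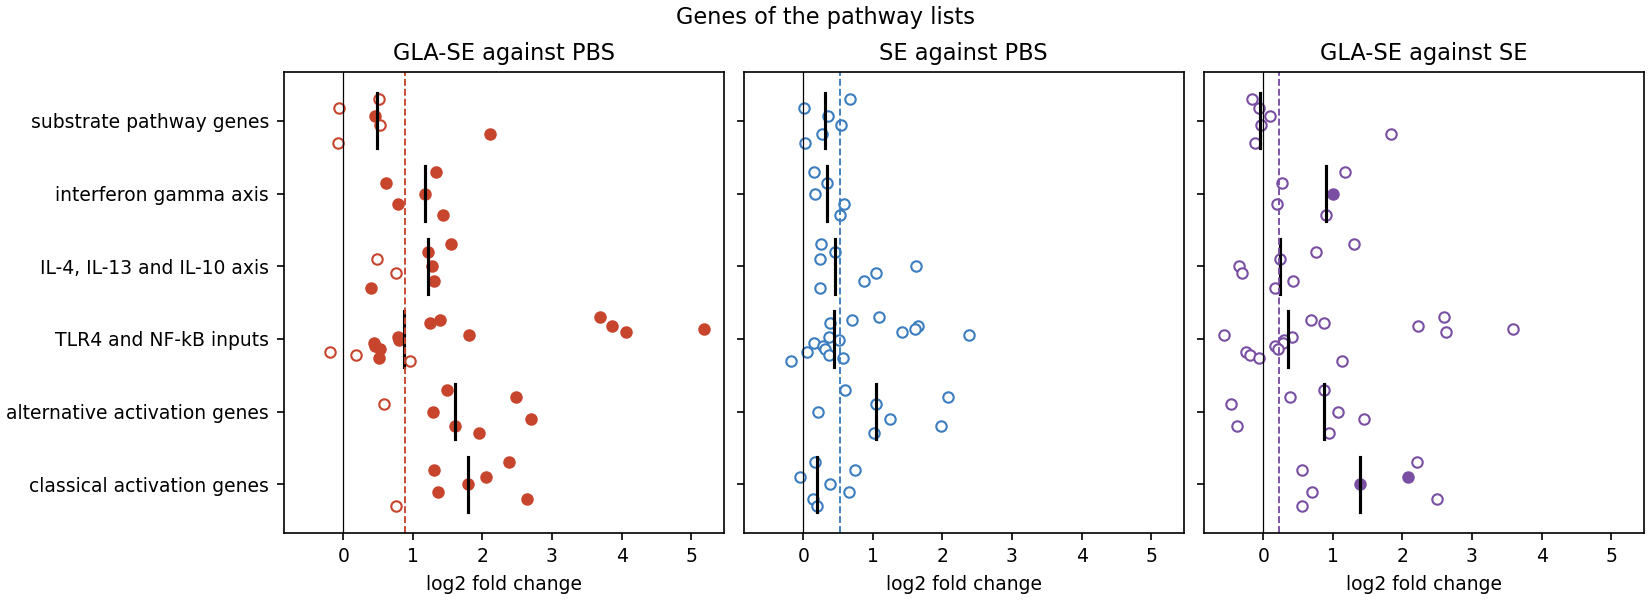
Log2 fold change of each gene in the 6 pathway lists in the 3 comparisons; filled points have an adjusted p under 0.05, black bars mark the list median and dashed lines the median over 750 genes. Against PBS most genes of 5 lists are called, and against SE only Irf1, Cxcl9 and Cxcl10 are.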

How the data were processed

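The authors deposited 1 table of counts, in whole numbers of barcoded probes, for 770 genes and 12 tumors. The methods describe normalization in nSolver, but total counts and reference genes differed between tumors, so the deposited counts were treated as raw. There are no reads, so no aligner or genome build is involved. The geNorm procedure over all 12 tumors kept 17 of 20 reference genes, which were the genes on the panel that the study's list of tested genes leaves out. Tumors were scaled to their geometric mean, which places the 3 groups on 1 scale. Tests were run in edgeR 4.0.16 (R 4.3.3) between 2 groups at a time, with no filter and no covariate. Exact permutation tests over 70 assignments were two-sided. In simulated counts, a log2 change of 1 was recovered for 57% of the changed genes in GLA-SE against PBS. The share was only 16% in SE against PBS and 6% in GLA-SE against SE. At a log2 change of 2 the shares were 97%, 71% and 71% in the same order. A gene that was not called in a comparison involving SE tumors is thus not read as unchanged. Figures used matplotlib 3.10.9 and Python 3.11.15.

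The 5 genes and all lists were chosen with earlier results of these data known, and 1 gene of the pathway lists is not reported here. Named genes were the 5 enzymes, the 3 genes most correlated with each, every gene of lists of 6 or fewer, and from longer lists up to 2 called genes with the largest rise and fall. Genes named beyond that to define a list or count were chosen after their values were seen.

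The alternatives were other reference genes (selected within each pair of groups, or all 20), scaling to the panel median, by TMM or not at all, a filter of 20 counts in 4 of the 8 tumors, a single fit to all 12 tumors, a block for the replicate number, limma 3.58.1 with a pseudocount of 10 or 1, DESeq2 1.42.0 with the reference gene factors or its own, Student's t-test as in a legend of the paper, adjustment by Benjamini-Yekutieli, and the omission of single tumors. Leaving out GLA-SE replicate 3 and SE replicate 4 together was chosen after seeing the data. Precision is limited by 4 tumors per group and, near 20 counts, by the count itself.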

Additional observations from a re-analysis of the deposited data

Results flagged for a closer look

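Among the 15 sets of 4 tumors (5 genes in 3 groups), 2 were flagged by Dixon's criterion on untransformed normalized counts. In these, the distance of a tumor to the nearest other tumor was large for the range of its group. For normally distributed values chance gives 5% of sets, or 0.75 of 15, and log2 values were not tested. Both were GLA-SE replicate 3, in 2 genes that followed each other across tumors, so the 2 sets are not independent. Nos2 had 1433 normalized counts there, against 180.2 to 333 in the other GLA-SE tumors. Ptgs2 had 3893, against 141 to 412. The sum of 9 neutrophil markers was also highest in this tumor (11293, against 1257 to 2932). The sum rests largely on S100a8 and Lcn2, and 5 of the 9 markers were not called against PBS tumors. Among GLA-SE tumors replicate 3 also had the highest sum of dendritic-cell markers (5261, against 1484 to 1805). The same held for monocyte and macrophage markers (122700, against 87926 to 95368), T-cell markers (3080, against 2252 to 2897) and NK-cell markers (1308, against 1120 to 1307). It did not hold for B-cell markers or for endothelium and fibroblast markers. The part of neutrophils or of any other cell type in the Nos2 and Ptgs2 values was not tested.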

How the results depend on the processing

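For GLA-SE against PBS, 4 of the 5 enzyme genes were called, 2 (Arg2 and Nos2) with Benjamini-Yekutieli adjustment, and 3 to 5 with each tumor left out in turn. For GLA-SE against SE, 1 was called. The count was 0 with scaling to the panel median, with Benjamini-Yekutieli adjustment and with the replicate block, 3 with all 12 tumors in one fit and with DESeq2 on the reference gene factors, and 4 without rescaling and with DESeq2's own size factors. Each tumor left out in turn gave 1. For SE against PBS the count was 0 under every alternative, although 140 of the 750 genes had an unadjusted p under 0.05 by edgeR and DESeq2 with the reference gene factors called 60. The sign turned for low or unchanged genes. For Ido1 in GLA-SE against PBS it was -0.43 with the panel median and -0.032 with TMM, and in GLA-SE against SE -0.10 with the panel median. In SE against PBS, Nos2 was -0.26 with the panel median, -0.24 with TMM, -0.19 without rescaling, -0.19 with DESeq2's own factors and -0.016 without SE replicate 3 (-0.016 to 0.40 over the tumors left out). Ido1 was -0.35, -0.32, -0.21 and -0.26 under the same 4 scalings, and -0.053, -0.070 and -0.078 without PBS replicate 3, PBS replicate 4 or SE replicate 4 (-0.078 to 0.54). Scaling to the panel median moved the panel's median log2 fold change for GLA-SE against PBS from 0.89 to -0.40, with 61 genes higher and 307 lower in place of 512 and 3, and TMM moved it to -0.0087 (148 and 168). The calls over the panel were 253 to 519 for GLA-SE against PBS and 0 to 109 for GLA-SE against SE, where the fit without SE replicate 4 gave 102. Same-numbered tumors did not deviate together (r -0.25 to 0.18), so the numbers do not pair them, and with the replicate block GLA-SE against PBS had 440 calls and GLA-SE against SE 0 (Arg1 2.88, adjusted p = 0.0917 by edgeR). Ido1 did not pass the filter of 20 counts in SE against PBS and has no value there. The cause of these shifts was not tested.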
